A study of Mus musculus with 20 samples.

Results

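The genes described here are the 78 protein-coding genes of the count table named Mrpl or Mrps followed by a number, the mitochondrial ribosomal protein genes, out of 54532 genes in all. By name 49 belong to the large subunit of the mitochondrial ribosome and 29 to the small subunit. The counts come from whole spleens of mice aged 4 weeks, either bred on a gluten-free diet or controls, as 20 libraries. Each library carries an ID that is a plain number or a number after the letter S, so there were 4 groups: gluten-free with plain IDs (7, 8, 9 and 10, n = 4), control with plain IDs (1 to 8, n = 8), gluten-free with S IDs (S1, S3, S5, S6 and S8, n = 5) and control with S IDs (S1, S2 and S6, n = 3). The labels used here give no strain, no composition of either diet, no meaning of the letter S and no statement that each ID is a separate mouse, so p-values measure the spread between these libraries, which may be technical.

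The mitochondrial ribosome translates the few proteins that the mitochondrial genome encodes, all of them subunits of the oxidative phosphorylation complexes. Its RNAs come from the mitochondrial genome, whereas its proteins are encoded by nuclear genes, made in the cytosol and imported. Part of them have counterparts in bacterial ribosomes and the others exist in mitochondrial ribosomes only. Red blood cell precursors, which the spleen of a young mouse still makes, need mitochondria for haem synthesis and shed them as they mature.

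The genes were lower in gluten-free than in control spleens among the plain IDs and were not called lower among the S IDs. In the plain IDs 49 of 77 tested genes fell (22.1% of all tested genes did) and 0 rose (17.5% of all), with a median log2 fold change of -0.39. In the S IDs none passed the test (0% of all genes did), the median was 0.17, and 72 of 77 fold changes were above 0. The difference between the diet effects was itself tested and was called for 47 genes, all toward a higher fold change in the S IDs (15.4% of all genes were called in that direction and 9.37% in the other).

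Levels are given as CPM, counts over the size of the library, after TMM scaling, a correction for the composition of each library. Of the plain-ID controls, control 5 stood apart. Its summed level of mitochondrial aminoacyl-tRNA synthetase genes was 866 CPM, against 1508 to 1697 CPM in the other 7, and lay within the 808 to 1039 CPM of the S-ID libraries. The mean log2 CPM of these synthetase genes was 4.73 in control 5, against 4.96 to 5.06 in the other 7. This gap is smaller, so the sum does not describe each gene. The mitochondrial rRNAs of control 5 summed to 3214 CPM, against 1253 to 2689 CPM in the other 7. The level of the mitoribosomal genes in control 5 (2971 CPM in sum) lay within the range of the other plain-ID controls. Without it 51 of 77 fell in the plain IDs and the interaction was called for 46.

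Library totals ran from 13626021 to 24268237 counts, and the 78 genes held 0.226% to 0.301% of the counts of a library. Their summed level was 2144, 2206, 2233 and 2339 CPM in gluten-free libraries with plain IDs, against 2439 to 3334 CPM (median 2947) in control libraries with plain IDs. All 4 gluten-free libraries lay below all 8 controls, and control 8, the lowest control, was the nearest to them. In the S IDs the sum was 2782, 3169, 3099, 2564 and 3200 CPM in gluten-free libraries (S1, S3, S5, S6 and S8), against 2716, 2556 and 2656 CPM in control libraries (S1, S2 and S6). There the groups overlapped, with gluten-free S6 at the low end of its group. Group means were 2231 ± 81.1 CPM (SD, n = 4) in gluten-free and 2964 ± 293 CPM (SD, n = 8) in control libraries with plain IDs, and 2962 ± 278 CPM (SD, n = 5) in gluten-free and 2643 ± 81.0 CPM (SD, n = 3) in control libraries with S IDs.

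**Figure D1:**
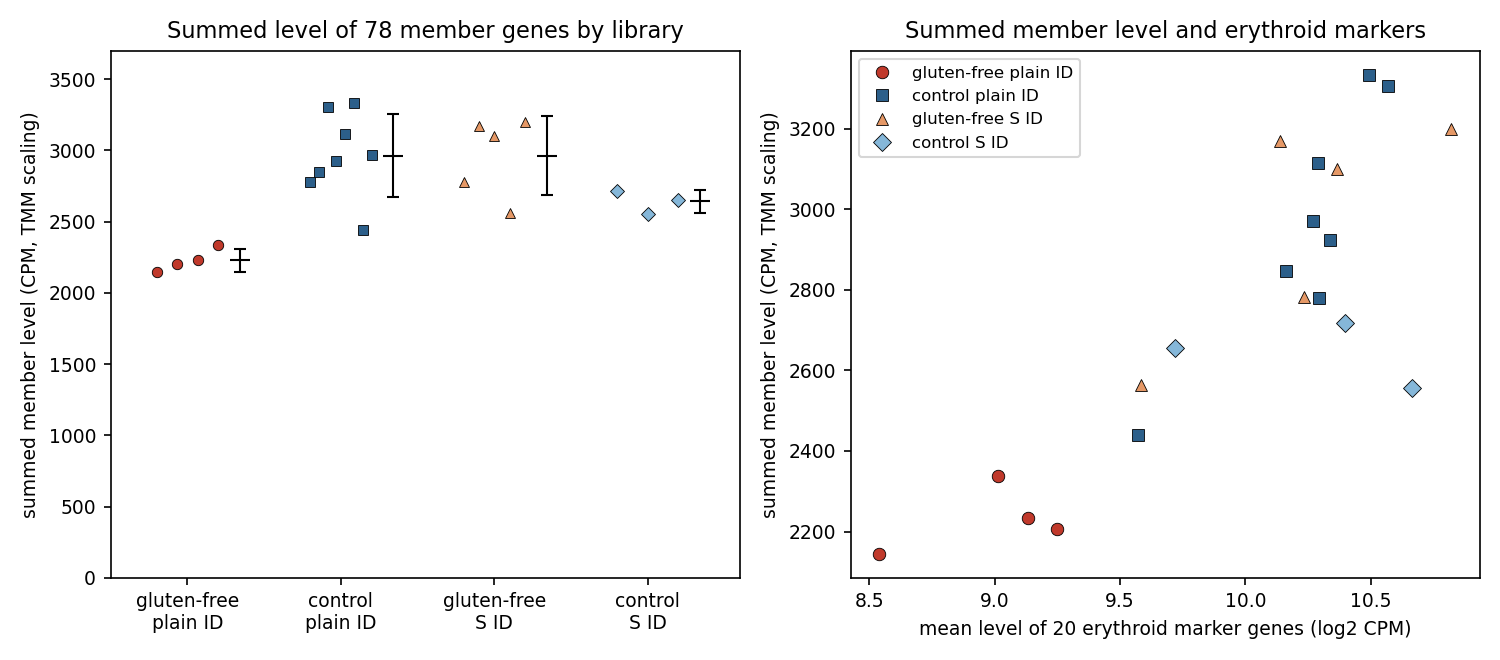
Left, summed level of the 78 genes in each library (CPM, TMM scaling), with bars for mean and SD, where the 4 gluten-free libraries with plain IDs (2144 to 2339 CPM) lie below all others. Right, the same sums against the mean log2 CPM of 20 erythroid marker genes, where gluten-free libraries with plain IDs are lowest on both axes.

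How the libraries are scaled sets how large this difference looks. As a share of the library total the sum was 2535 to 2726 CPM in gluten-free and 2716 to 3008 CPM in control libraries with plain IDs, ranges that overlap slightly. The TMM factors were 1.15 to 1.23 in gluten-free and 0.898 to 1.11 in control libraries with plain IDs. With library totals in place of TMM, the median fold change of all 18362 tested genes moved to 0.31, against 0.03 with TMM. Relative to the median of all genes, the median of the mitoribosomal genes was -0.42 with library totals and -0.43 with TMM. The count of genes that fell was 18 with library totals and 49 with TMM, with 0 higher under either. Over all tested genes, library totals put 6519 of 8566 called genes on the higher side, and TMM 3214 of 7269.

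Within the plain IDs the question was how mice bred gluten-free differed from control mice. Here 49 of 77 mitoribosomal genes were lower (edgeR quasi-likelihood test, Benjamini-Hochberg adjusted p under 0.05 over all tested genes), a share to be read against 22.1% of all tested genes, and 0 were higher, against 17.5%. All 77 fold changes were below 0 with TMM and 50 of 77 with library totals, while the median of all genes was 0.03 with TMM. The fold changes ran from -0.92 to -0.00071, from a decrease for Mrps36 to a value close to 0 for Mrpl24. Of the genes that fell, 13 did so by 1.5-fold or more. For 29 genes every gluten-free library lay below every control, against 14.2% of all tested genes, and the other 20 called genes had overlapping groups. Genes named for the large subunit fell in 36 of 48 cases (median -0.42), and those named for the small subunit in 13 of 29 (median -0.30).

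The 8 genes that fell most carried names of both subunits. Mrps36 (ENSMUSG00000061474, chr13:100735955-100744659, GRCm38) encodes a protein first found with the small subunit and now known as a part of the 2-oxoglutarate dehydrogenase complex of the citric acid cycle. Its level was 15.1, 22.4, 18.4 and 18.8 CPM in gluten-free 7, 8, 9 and 10, against 24.6 to 45.8 CPM (median 36.0) in controls. The groups did not overlap, and the log2 fold change was -0.92 ± 0.15 (SE; edgeR adjusted p = 0.00015). Reads may be split between Mrps36 and its pseudogenes, which held 0 to 92 counts over the 20 libraries. Mrps22, a small-subunit protein without a bacterial counterpart, had 11.5, 11.5, 10.3 and 12.1 CPM in the gluten-free libraries, against 15.7 to 26.1 CPM (median 21.2) in controls, without overlap and at a log2 fold change of -0.85 ± 0.14 (SE; edgeR adjusted p = 0.00025). Mrps28 had 19.1, 18.3, 19.1 and 19.997 CPM in the gluten-free libraries, against 24.9 to 41.1 CPM (median 34.2) in controls. This small-subunit gene varied little among the gluten-free libraries, and its log2 fold change was -0.83 ± 0.12 (SE; edgeR adjusted p = 7.4e-05).

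Mrpl18 (ENSMUSG00000057388, chr17:12911349-12916345, GRCm38) encodes a protein of the central protuberance, the crest of the large subunit. It had 39.1, 39.1, 41.1 and 47.1 CPM in gluten-free 7, 8, 9 and 10, against 52.4 to 86.2 CPM (median 72.3) in controls. The groups stood apart, at a log2 fold change of -0.80 ± 0.11 (SE; edgeR adjusted p = 5.8e-05). The large-subunit gene Mrpl20 had the smallest adjusted p of all 77 genes (edgeR, 3.2e-05), with 42.6, 52.0, 49.4 and 49.6 CPM in gluten-free libraries, against 65.1 to 91.8 CPM (median 84.3) in controls. The remaining genes of this group belong to the large subunit: Mrpl14, which sits where the subunits meet, at 28.4 ± 1.23 CPM in gluten-free and 47.6 ± 9.78 CPM in control libraries, Mrpl28 at 47.7 ± 3.86 and 79.6 ± 13.01 CPM, and Mrpl51 at 50.5 ± 3.31 and 84.1 ± 14.1 CPM (SD, n = 4 gluten-free and 8 control). For each of these genes no gluten-free library reached the lowest control.

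**Figure D2:**
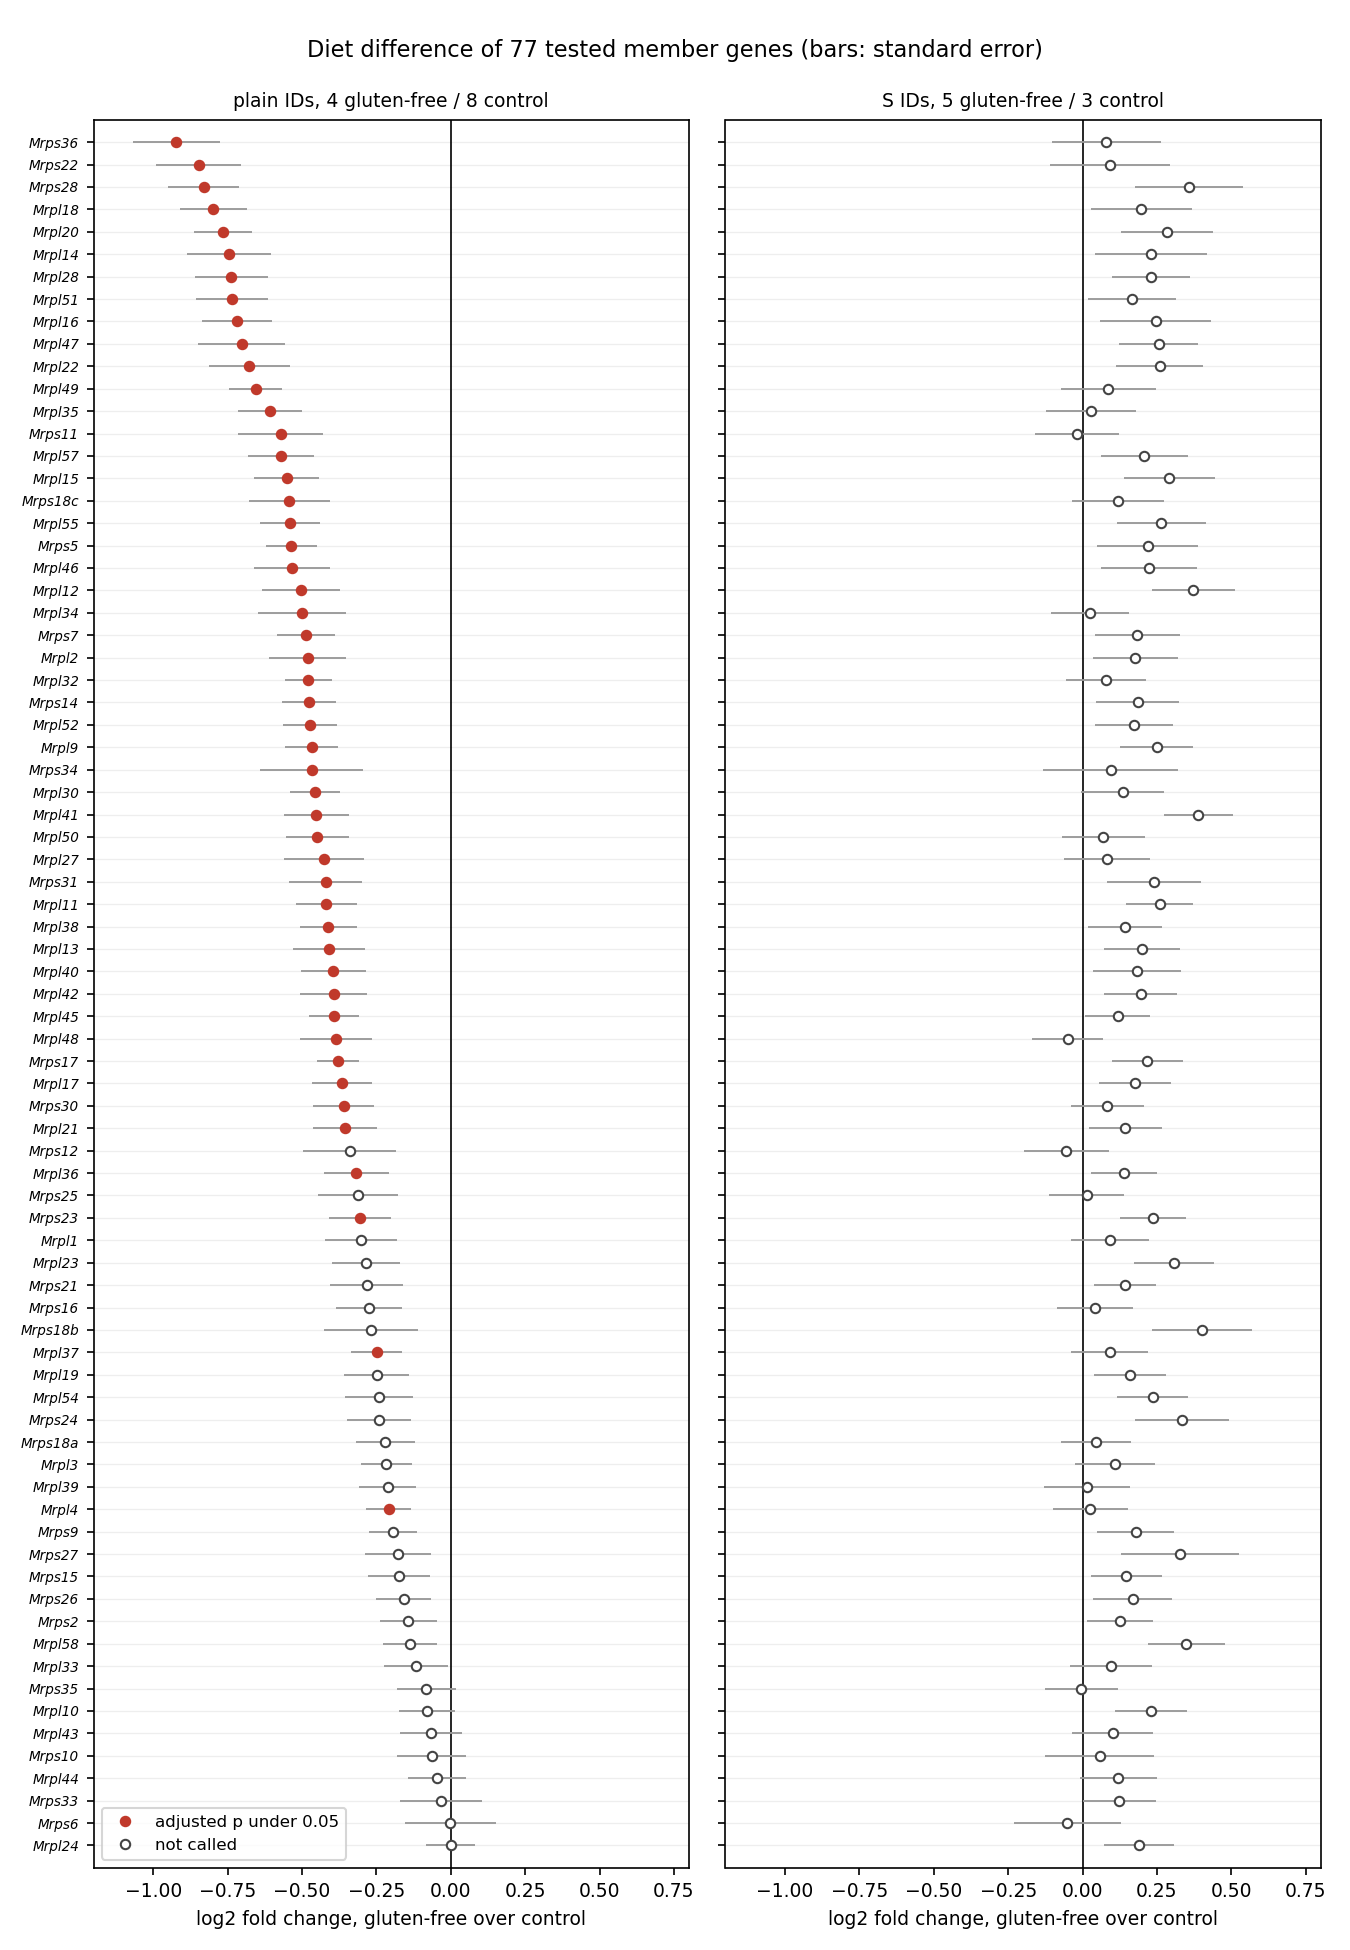
Log2 fold change, gluten-free over control, with standard errors for the 77 tested genes in the plain IDs (left) and the S IDs (right), ordered by the plain-ID value. Filled points passed an adjusted p of 0.05, 49 genes on the left and 0 on the right.

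At the other end of the order, Mrpl24, a large-subunit protein at the exit tunnel through which new chains leave, showed no detectable difference. It had 56.3, 49.5, 46.3 and 48.8 CPM in gluten-free libraries, against 47.1 to 58.0 CPM (median 48.6) in controls, with gluten-free 7 and control 8 both high in their groups. Its log2 fold change was -0.00071 ± 0.081 (SE; edgeR adjusted p = 0.996), and 0.27 with library totals, which moved the median of all genes to 0.31. Mrps10 (-0.06 ± 0.12), Mrps35 (-0.08 ± 0.10) and Mrpl10 (-0.08 ± 0.09, SE) also missed the threshold (edgeR adjusted p = 0.69, 0.53 and 0.52), and with library totals each was above 0, at 0.20 or 0.21. Mrpl10 belongs to the stalk of the large subunit, and Mrps10 and Mrps35 to the small subunit.

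**Figure D3:**
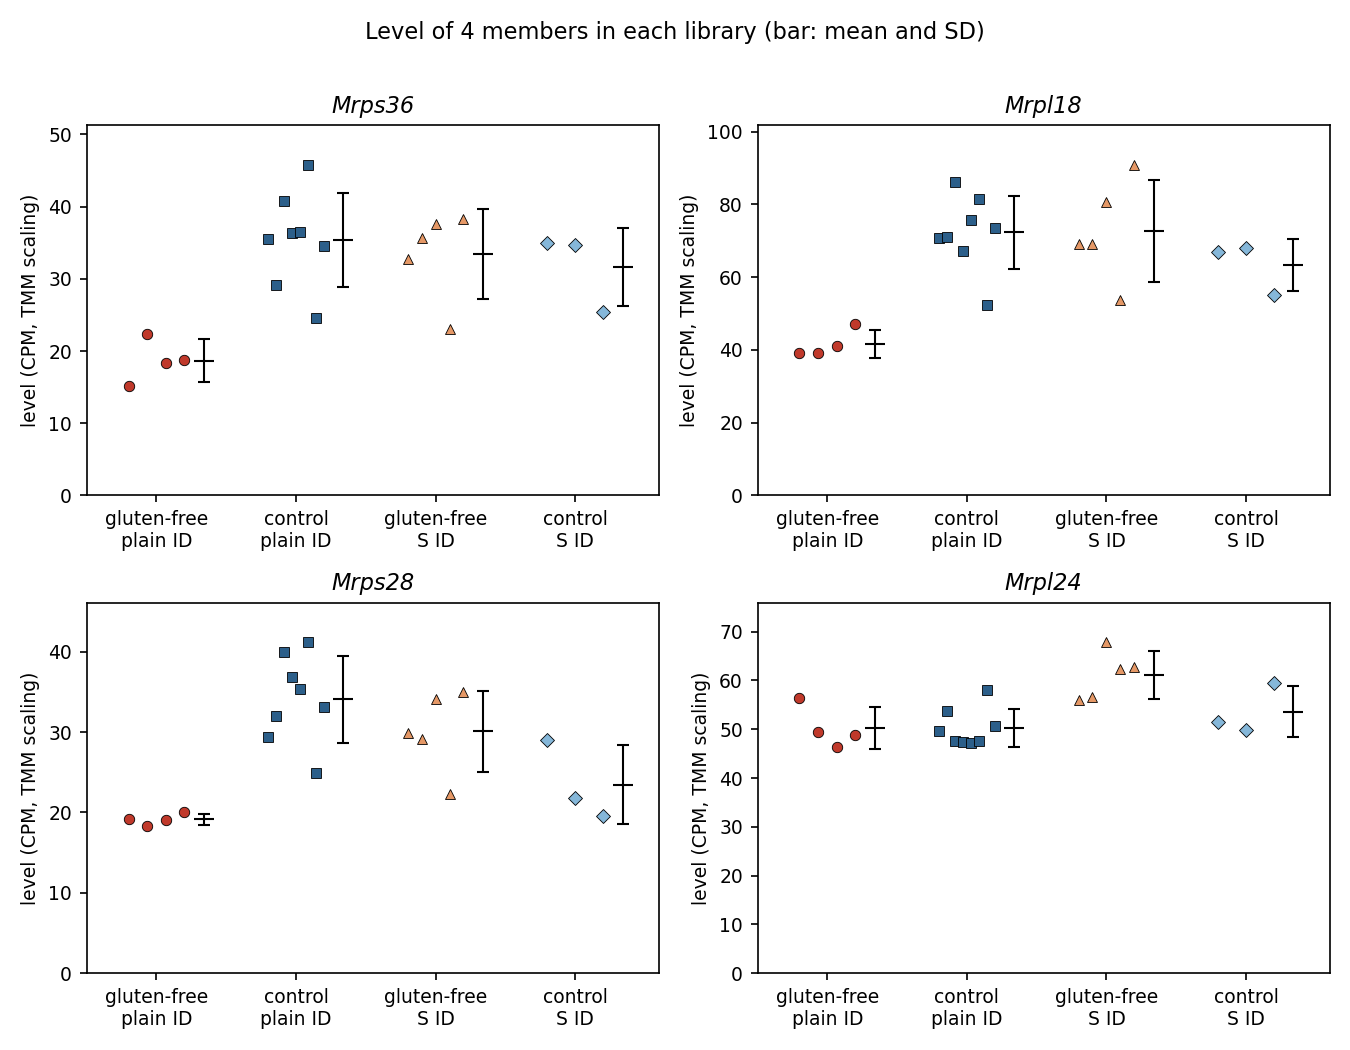
Level (CPM, TMM scaling) of Mrps36, Mrpl18, Mrps28 and Mrpl24 in each library, with mean and SD beside each group. Gluten-free libraries with plain IDs lie below all plain-ID controls for the first 3 genes and among the controls for Mrpl24.

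By place in the ribosome, all 6 genes listed here for the central protuberance fell in the plain IDs (median -0.42). They were Mrpl18 (-0.80), Mrpl46 (-0.53), Mrpl27 (-0.43), Mrpl38 (-0.41), Mrpl40 (-0.39) and Mrpl48 (-0.39). These short lists need not hold every gene of a place. Of the 3 genes listed for the stalk, where the elongation factors bind, Mrpl12 (-0.50) and Mrpl11 (-0.42) fell and Mrpl10 did not pass. Of 6 genes around the exit tunnel 4 fell: Mrpl47 (-0.70), Mrpl22 (-0.68), Mrpl45 (-0.39), which holds the tunnel's mouth at the inner membrane, and Mrpl17 (-0.37). Mrpl23 (-0.28, edgeR adjusted p = 0.058) and Mrpl24 did not pass. Mrps30 and Mrps18a are named for the small subunit but sit in the large one, and of these Mrps30 fell (-0.36) and Mrps18a did not pass (-0.22, edgeR adjusted p = 0.087). Genes with a bacterial counterpart fell in 29 of 45 cases (median -0.42) and genes found in mitochondria only in 19 of 31 (median -0.39). The calls of Mrpl27, Mrpl48 and Mrps30 were lost without single libraries. Without gluten-free 7 their adjusted p was 0.079, 0.068 and 0.058, and without gluten-free 8 it was 0.074, 0.053 and 0.063 (edgeR). That of Mrpl48 was also lost without gluten-free 10 (edgeR adjusted p = 0.054). A pseudogene of Mrpl48 held 1904 counts over the 20 libraries, so that reads may be split between them.

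The ratio of large-named to small-named counts was 2.04 to 2.08 in gluten-free and 2.11 to 2.22 in control libraries with plain IDs, without overlap. This ratio does not depend on the scaling of the libraries. In the S IDs it was 2.13 to 2.20 in gluten-free and 2.05 to 2.16 in control libraries.

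To show the start regions of 3 of the genes that fell most, of the gene nearest to 0 and of a gene that fell and has both an ETS and an NRF1 core, promoter windows were read from RefSeq (GRCm38.p6), each from 250 bases before to 50 after the start, 5′ to 3′ on the gene's strand. Capitals mark the letters of an ETS core (CCGGAAG) or an NRF1 core (GCATGCGC) on either strand. ETS factors include GABP, which with NRF1 is known to bind many nuclear genes of mitochondria. The windows are Mrps36 at chr13:100744610-100744909 (minus strand), Mrps22 at chr9:98601630-98601929 (minus), Mrpl18 at chr17:12916042-12916341 (minus), Mrpl22 at chr11:58171414-58171713 (plus) and Mrpl24 at chr3:87919294-87919593 (plus).
Mrps36: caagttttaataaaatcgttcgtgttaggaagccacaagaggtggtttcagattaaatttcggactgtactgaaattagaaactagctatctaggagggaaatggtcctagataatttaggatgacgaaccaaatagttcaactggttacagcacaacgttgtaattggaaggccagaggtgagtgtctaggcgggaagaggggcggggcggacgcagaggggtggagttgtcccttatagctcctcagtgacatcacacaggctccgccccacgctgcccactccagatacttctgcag
Mrps22: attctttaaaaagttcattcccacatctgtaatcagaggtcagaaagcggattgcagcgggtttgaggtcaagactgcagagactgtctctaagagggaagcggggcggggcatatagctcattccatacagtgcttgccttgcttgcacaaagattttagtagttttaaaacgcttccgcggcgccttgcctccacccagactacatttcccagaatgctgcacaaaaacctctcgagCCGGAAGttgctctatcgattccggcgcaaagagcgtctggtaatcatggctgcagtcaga
Mrpl18: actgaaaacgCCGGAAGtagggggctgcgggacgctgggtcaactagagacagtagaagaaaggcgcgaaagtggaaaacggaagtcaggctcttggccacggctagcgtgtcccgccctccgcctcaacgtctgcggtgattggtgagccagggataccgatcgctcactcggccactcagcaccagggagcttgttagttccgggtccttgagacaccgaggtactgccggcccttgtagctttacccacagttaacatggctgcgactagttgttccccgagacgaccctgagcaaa
Mrpl22: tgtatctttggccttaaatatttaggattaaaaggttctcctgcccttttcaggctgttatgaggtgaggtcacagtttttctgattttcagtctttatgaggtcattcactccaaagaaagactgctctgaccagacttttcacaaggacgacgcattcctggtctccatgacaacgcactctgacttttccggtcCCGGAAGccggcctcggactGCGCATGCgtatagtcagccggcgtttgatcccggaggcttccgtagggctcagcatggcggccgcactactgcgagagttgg
Mrpl24: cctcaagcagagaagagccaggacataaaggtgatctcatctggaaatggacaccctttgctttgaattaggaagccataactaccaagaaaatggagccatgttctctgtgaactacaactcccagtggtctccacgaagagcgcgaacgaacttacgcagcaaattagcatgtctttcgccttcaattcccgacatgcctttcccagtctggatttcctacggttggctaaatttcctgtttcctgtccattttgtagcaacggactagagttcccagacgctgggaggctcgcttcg
The Mrps22 window has an ETS core 11 bases before the start, the Mrpl18 window 1 at 240 bases before it, and the Mrpl22 window an ETS core 53 and an NRF1 core 33 bases before it. These starts are those of RefSeq. As counted, the Mrpl18 gene reaches to chr17:12916345, so the whole Mrpl18 window lies within that gene. The windows of Mrps36, which fell most, and of Mrpl24, the nearest to 0, hold neither.

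A window was found for 69 of the 78 genes. An ETS core stood in the windows of 37.7% of them, against 12.8% of 17423 other protein-coding genes, 9.86% of 26956 other genes of any type and 8.86% of all 32851 windows. An NRF1 core was found for 11.6%, against 3.91% of other coding genes (2.71% of all windows), and a YY1 core (AAGATGGCG) for 11.6%, against 2.1% of other coding genes (1.4% of all windows). The CCAAT box (CCAAT) was found for 39.1%, against 42.3% of other coding genes (37.4% of all windows), and the TATA box (TATAAA) for 7.25%, against 14.8% (13.6% of all windows). Each motif was searched on both strands and counted by itself, and a match describes letters only. Among mitoribosomal genes with a window, an ETS core was present in 13 of 43 that fell in the plain IDs and in 12 of 25 that were not called, and the median fold changes with and without it were -0.34 and -0.42.

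Other genes of the same pathway were taken from lists, and their counts are to be read against the 22.1% of all tested genes that fell and the 17.5% that rose. Of the mitoribosomal proteins that carry other names, 4 of 5 fell in the plain IDs: Gadd45gip1 (-0.65 ± 0.13), Aurkaip1 (-0.49 ± 0.10), Dap3 (-0.49 ± 0.09) and Chchd1 (-0.47 ± 0.11, SE), whereas Ptcd3 did not pass (-0.21, edgeR adjusted p = 0.098). Factors that assemble the mitochondrial ribosome fell in 9 of 25 cases and rose in 0 (median -0.25), led by the rRNA methyltransferase gene Mrm1, at 32.7 ± 2.71 CPM in gluten-free and 66.5 ± 11.6 CPM in control libraries (SD, n = 4 and 8; log2 fold change -1.02). The elongation factor gene Gfm1 (-0.62) and the release factor gene Mtrf1l (-0.44) were among 4 of 12 translation factor genes that fell. Of 20 mitochondrial aminoacyl-tRNA synthetase genes 8 fell, among them Kars (-0.49), which also serves the cytosol. In mitochondrial transcription and mRNA stability 3 of 11 fell, a share near that of all genes, including Lrpprc (-0.49), and Mterf2 rose (0.43, edgeR adjusted p = 0.044; it was named after its value was seen).

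All 12 genes of the protein import machinery fell (median -0.43), for example Timm17a (-0.68) and Tomm22 (-0.63), and so did 23 of 26 nuclear oxidative phosphorylation genes (median -0.51), among them Ndufv1 (-0.85) and Ndufa10 (-0.64) of complex I. Of the regulators of mitochondrial biogenesis 4 of 8 fell, with the transcription factor genes Nrf1 (-0.74) and Yy1 (-0.42) and the coactivator gene Pprc1 (-0.42). The rRNAs of the mitochondrial ribosome were mt-Rnr2 (-0.71 ± 0.22, SE; edgeR adjusted p = 0.017) and mt-Rnr1 (-0.48 ± 0.19, SE; edgeR adjusted p = 0.051), and 0 of 12 mitochondrial mRNAs were called. The quotient of the summed mitoribosomal level and that of the nuclear oxidative phosphorylation genes was 0.662 to 0.681 in gluten-free and 0.594 to 0.652 in control libraries with plain IDs, without overlap. Cytosolic ribosomal protein genes fell in 54 of 78 cases (median -0.31), a share close to that of the mitochondrial ribosome.

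**Figure D4:**
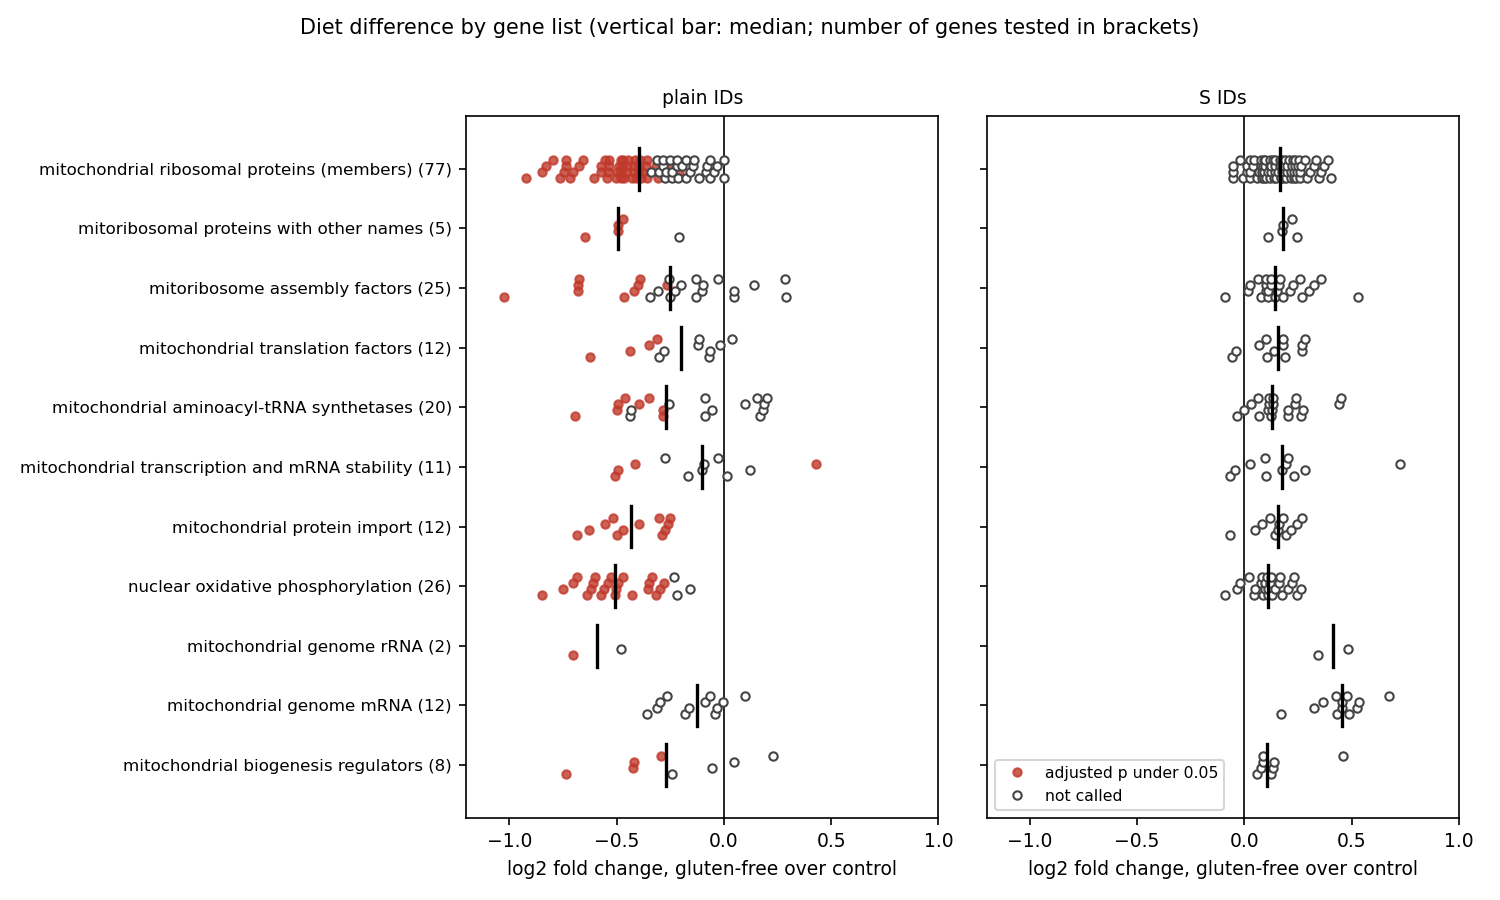
Log2 fold change, gluten-free over control, of single genes in 11 lists in the plain IDs (left) and the S IDs (right), with a bar at each median and filled points past an adjusted p of 0.05. Medians on the left are all below 0 (members -0.39, nuclear oxidative phosphorylation -0.51), and no gene passed on the right.

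Marker genes of cell types moved with the same contrast. All 20 erythroid markers fell (median -1.36), and their summed level was 54212 to 96821 CPM in gluten-free and 80376 to 181785 CPM in control libraries with plain IDs. All 20 cell cycle genes fell (median -1.14), with sums of 3181 to 4302 CPM in gluten-free and 5748 to 10574 CPM in control libraries. T cell markers rose in 14 of 14 cases, neutrophil markers in 14 of 14, megakaryocyte and platelet markers in 9 of 9 and B cell markers in 1 of 10, and 0 of 10 macrophage markers were called. No erythroid or cell cycle marker was at 0 counts. In bulk spleen, fewer cells of a type and less RNA per cell cannot be told apart.

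The erythroid mean was 8.54 to 9.25 log2 CPM in gluten-free and 9.57 to 10.57 in control libraries with plain IDs, without overlap, whereas the summed erythroid levels above overlapped. With the erythroid mean as a further term, 0 of 77 genes were called (edgeR; 7 at an unadjusted p under 0.05, median 0.02), and with the cell cycle mean also 0 (edgeR; 9 at an unadjusted p under 0.05, median 0.08). How many of all genes were called with these terms is not given here, so 0 of 77 is not a result about these genes alone. Since neither mean overlaps between the groups, the part of diet and that of these means cannot be told apart in these libraries. Control 8 had the lowest erythroid mean of the plain-ID controls (9.57) and the lowest level in its group for 55 of 77 mitoribosomal genes, and gluten-free S6 had the lowest erythroid mean of its group (9.58) and the lowest level for 56. Gluten-free 7, the lowest of its group in the erythroid mean (8.54), was lowest for 38. In the S-ID controls the lowest erythroid mean was that of S6 (9.72), which was lowest for 26 genes, while S2 was lowest for 36. These ranks hold for TMM scaling, whose factor was highest in its group for control 8, gluten-free S6, gluten-free 7 and control S6. With library totals the summed mitoribosomal level of control 8 was still the lowest of its group (2716 CPM). Gluten-free S6 (2760 CPM) then lay above gluten-free S1 (2647 CPM), and gluten-free 7 (2643 CPM) above gluten-free 8 (2535 CPM). Control S6 was then the highest of its group (2845 CPM). Without control 8 the count in the plain IDs was 57, and without gluten-free 7 it was 39. Acinar genes of the pancreas summed to 926 CPM in control 4 and 10398 CPM in gluten-free S1, against at most 27.3 CPM in the other libraries, and without control 4 the plain-ID count was 47. For the counts of 57, 39 and 47 the calls over all genes in the same fits are not given here. They show only how the count of mitoribosomal genes moved.

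**Figure D5:**
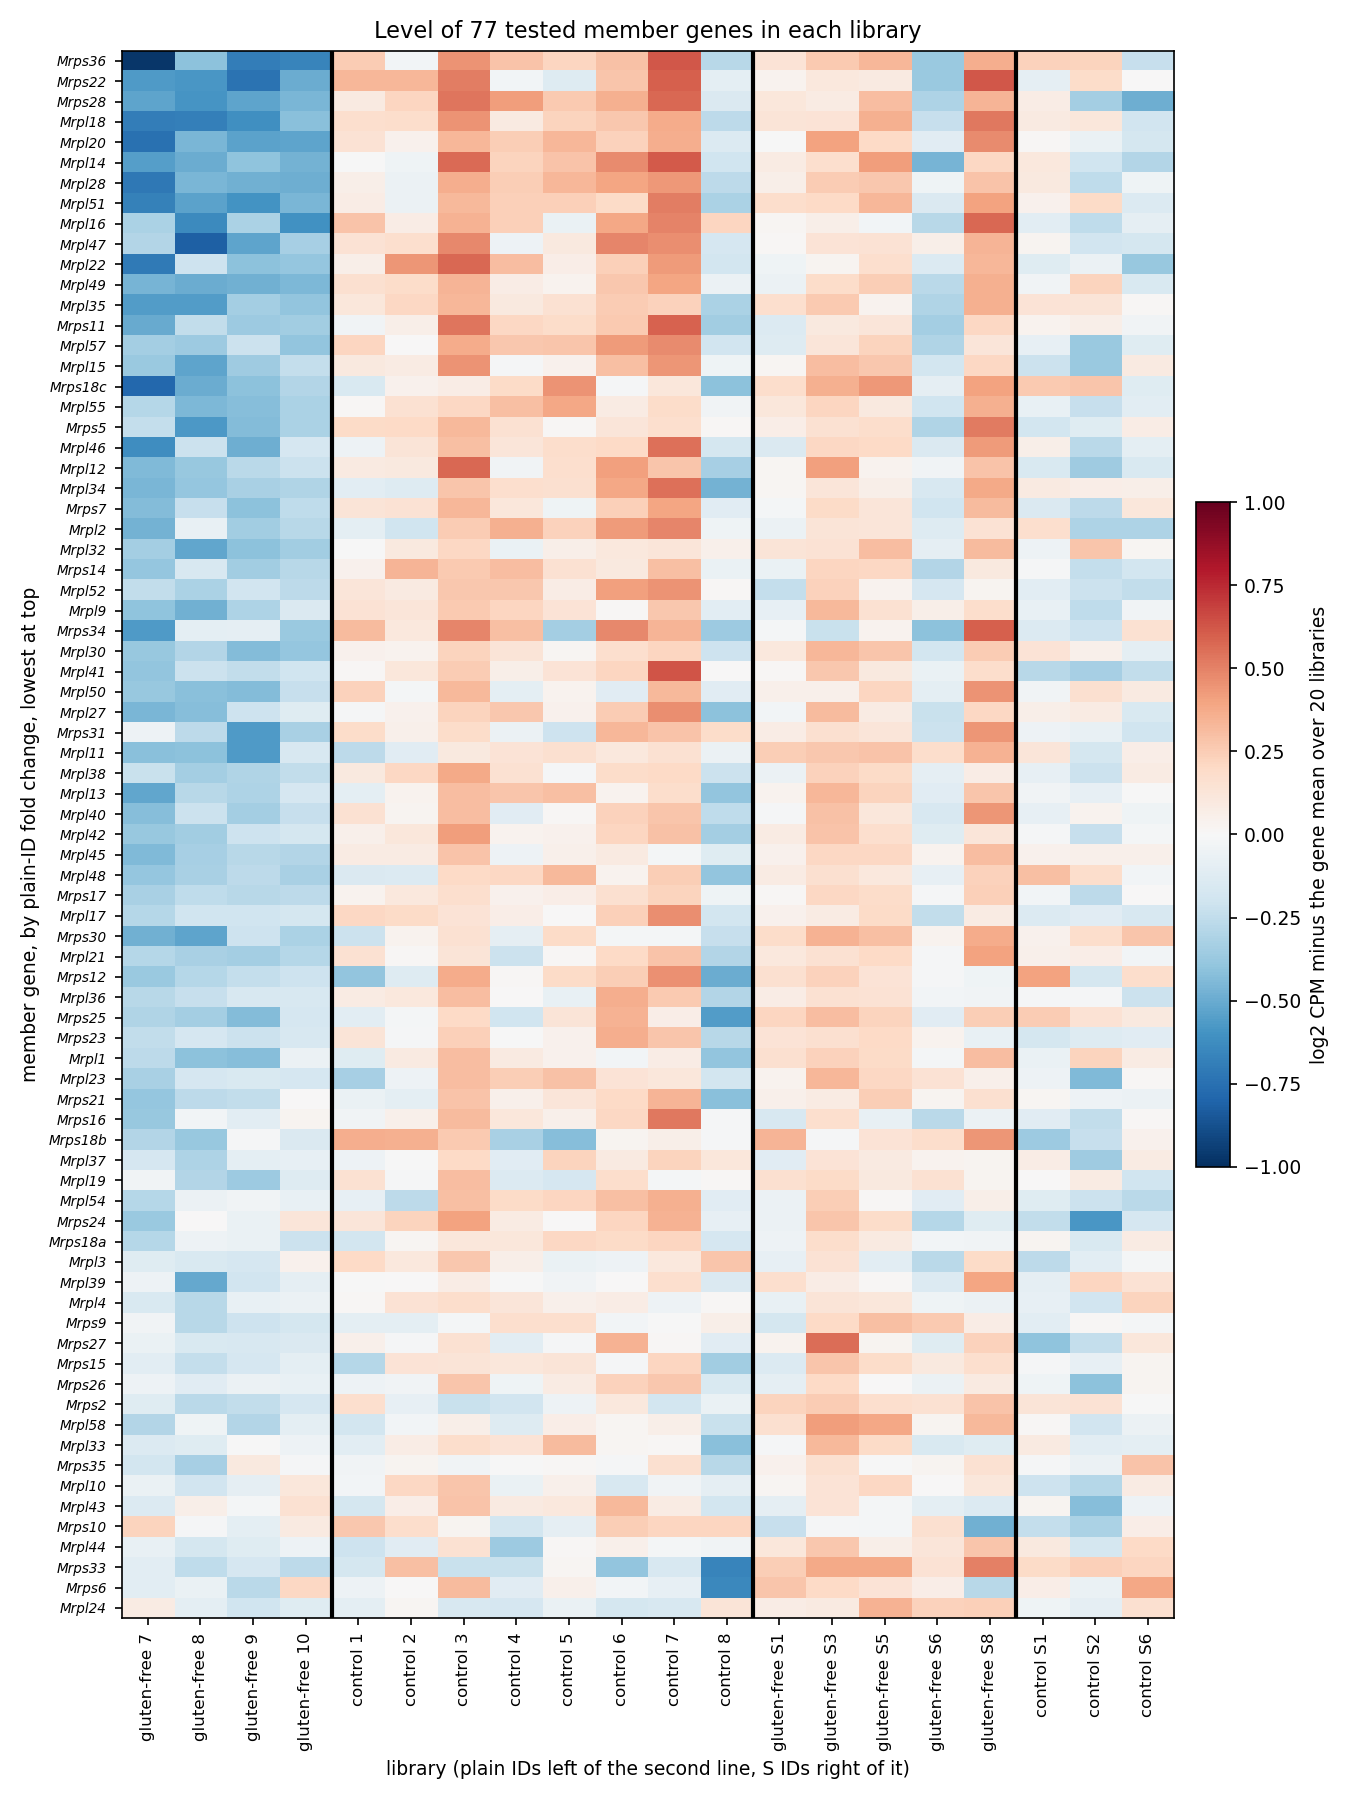
Log2 CPM of the 77 tested genes in each library, less the gene's mean over the 20 libraries, with genes ordered by plain-ID fold change. Blue columns are the 4 gluten-free libraries with plain IDs. With TMM scaling, the paler columns of control 8 and gluten-free S6 hold the lowest values of their groups for 55 and 56 genes.

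The same question in the S IDs gave no call. None of the 77 genes passed (0% of all 18362 tested genes were called; edgeR, 6 mitoribosomal and 989 of all genes at an unadjusted p under 0.05), and DESeq2 called 4 genes over the whole table and 0 mitoribosomal ones, with 7 at an unadjusted p under 0.05. The 3 genes with the smallest p were Mrpl41, Mrpl58 and Mrpl12. Mrpl41, a large-subunit gene found in mitochondria only, had 39.0, 46.5, 41.4, 36.9 and 43.7 CPM in gluten-free S1, S3, S5, S6 and S8, against 31.8, 30.8 and 32.5 CPM in control S1, S2 and S6. Its groups did not overlap, and its log2 fold change was 0.39 ± 0.12 (SE; edgeR adjusted p = 0.889). Mrpl58 encodes a peptidyl-tRNA hydrolase that frees stalled ribosomes, and had 33.2, 39.7, 38.8, 30.2 and 37.1 CPM in gluten-free libraries, against 29.8, 26.0 and 28.5 CPM in controls. Mrpl12 had 37.8, 49.9, 38.3, 36.4 and 45.7 CPM in gluten-free libraries, against 33.6, 29.2 and 33.7 CPM in controls, again without overlap. In all, 9 genes lay higher in every gluten-free than in every control library and 68 overlapped. The share of all tested genes that did so in the S IDs is not given here. The count of 9 can therefore not be read as particular to these genes. Among the markers, 0 of 20 erythroid genes (median -0.01) and 0 of 20 cell cycle genes (median 0.07) were called here.

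The diet effect differed between the ID forms. The interaction, the log2 fold change in the S IDs minus that in the plain IDs, was called for 47 of 77 genes and above 0 in each (edgeR; over all tested genes 15.4% were called above 0 and 9.37% below 0), with a median of 0.56. The largest were Mrps28 (1.19 ± 0.21), Mrpl20 (1.05 ± 0.17), Mrps36 (1.00 ± 0.24), Mrpl18 (1.00 ± 0.20) and Mrpl14 (0.98 ± 0.24, SE), at edgeR adjusted p of 0.0022, 0.0019, 0.0068, 0.0029 and 0.0076. For Mrps28 the S-ID values were 29.9, 29.2, 34.1, 22.2 and 35.0 CPM in gluten-free S1, S3, S5, S6 and S8, against 29.0, 21.8 and 19.6 CPM in control S1, S2 and S6. For Mrpl18 they were 69.0, 69.2, 80.8, 53.8 and 90.9 CPM in gluten-free libraries, against 67.0, 68.1 and 55.1 CPM in controls. In either gene the S-ID groups overlapped and the plain-ID groups did not. With library totals the interaction was called for 17 genes (median 0.25, against -0.30 for all genes), and library totals put 1294 of 3948 called genes above 0 over all genes, against 2825 of 4546 with TMM. Among the markers the interaction was called above 0 for 17 of 20 erythroid and 20 of 20 cell cycle genes and called below 0 for 14 of 14 neutrophil and 8 of 9 megakaryocyte and platelet genes, and their part in the result was not tested.

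Over all 20 libraries, with the ID form as a term, no mitoribosomal gene was called (0% of all genes; edgeR, 19 at an unadjusted p under 0.05 and 4563 of all genes), and DESeq2 called 4, all lower. The smallest p were those of Mrps36 (-0.51 ± 0.17, SE; edgeR adjusted p = 0.098), Mrpl35 (-0.34 ± 0.12; 0.098) and Mrpl49 (-0.35 ± 0.12; 0.100). The median was -0.16 with TMM and 0.0015 with library totals, against -0.0020 and 0.16 for all genes. Without control S6 or without gluten-free S8, 10 genes were called, all 3 of these among them, with edgeR adjusted p of 0.012, 0.025 and 0.017 without control S6 for Mrps36, Mrpl35 and Mrpl49. How many of all genes were called by DESeq2 or without these libraries is not given here. The counts of 4 and 10 can therefore not be read as particular to these genes.

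The ID forms were also compared within each diet. These comparisons share libraries with the diet comparisons and are no independent support for them. In gluten-free spleens 58 of 77 genes were higher with S than with plain IDs and 0 lower (edgeR; over all genes 19.4% higher and 12.1% lower), with a median of 0.42. Mrps36 was at 33.5 ± 6.22 CPM in gluten-free libraries with S IDs and 18.7 ± 2.99 CPM in those with plain IDs (SD, n = 5 and 4; log2 fold change 0.84 ± 0.16, SE), and Mrps10 was lowest at -0.15 ± 0.15 (SE). With library totals 11 were higher and 1 lower (median 0.09, against -0.37 for all genes), and library totals put 1628 of 7414 called genes on the higher side over all genes, against 3569 of 5788 with TMM. All 20 erythroid markers, all 20 cell cycle markers, both mitochondrial rRNAs (median 1.67) and all 12 mitochondrial mRNAs (median 1.23) were higher here as well, and 10 of 14 neutrophil markers were lower (median -1.32). Their part in the result was not tested. In control spleens 0 of 77 differed between S and plain IDs (1.94% of all genes were called; edgeR, 20 at an unadjusted p under 0.05, median -0.19), and DESeq2 called 4. Without control 8 edgeR called 5. The calls over all genes in these alternative fits are not given here, so the counts of 4 and 5 have no share beside them.

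Levels were compared between genes per length only, as TPM, length-corrected shares of the transcripts computed from the lengths in the table. Mean TPM over the 20 libraries ran from 2.93 for Mrps10, 6.29 for Mrps35 and 7.49 for Mrpl19 to 114 for Mrpl52, 124 for Mrpl34 and 143 for Mrps21. For 73 of 78 genes the table's length is that of all exons together, which is long where a gene has long rare transcripts. With the length of the principal transcript, an alternative chosen after the data were seen, Mrpl52 (302 TPM) and Mrps21 (261 TPM) led, and Mrpl33 moved to place 5 from place 60. Of the genes at the ends of this order, Mrpl34 (-0.50) and Mrpl52 (-0.47) fell in the plain IDs, and Mrps21 (-0.28, edgeR adjusted p = 0.077) and Mrpl19 (-0.25, edgeR adjusted p = 0.078) did not pass.

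Mrpl53 (ENSMUSG00000030037, chr6:83109040-83109939, GRCm38) had 0 counts in all 20 libraries. In the GENCODE M21 annotation, which gives 73 of the 78 genes the coordinates of the table, 88.0% of the exonic bases of Mrpl53 lie on the same strand as exons of Gm42688 or Ccdc142os, and how such reads were counted is not given in the sources used here. A count of 0 allows up to 3 counts over the 20 libraries, for counting error only. Mrps34 (77.8%) and Mrps25 (69.8%) also share most of their exonic bases with neighbours. Genes with no shared exonic base fell in 31 of 45 cases in the plain IDs (median -0.41) and those sharing some in 18 of 32 (median -0.36). Of the latter, those sharing over 20% of their exonic bases fell in 3 of 9 cases (median -0.27). The 78 genes lie on 17 chromosomes, with 11 of them on chromosome 11.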

How the data were processed

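RNA-seq counts of 20 libraries of whole spleen from mice aged 4 weeks were read from the table the authors deposited, which holds raw counts per gene and, per the file headers, the length of each gene. Per the labels' protocols total RNA was extracted with a lipid tissue kit and DNase and sequenced on an Illumina NovaSeq. The submitters' processing notes name CASAVA, HISAT2 2.0.5, featureCounts 1.5.0 and the GRCm38 build. Whether counting used strand, which annotation release it used and what became of reads with several matches is not given in the sources used here.

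Groups were taken from the diet label and the form of the ID in each title. Genes passed edgeR's filterByExpr over the 4 groups, which left 18362 of 54532. Libraries were scaled by TMM and tested with edgeR 4.0.16 (quasi-likelihood, R 4.3.3, limma 3.58.1), with Benjamini-Hochberg adjustment over all tested genes and a threshold of 0.05. Log2 CPM used a prior count of 2. The procedure was also run on simulated counts, with an outcome not given here. Far fewer genes were changed there than were called in the plain IDs, so that run does not test the scaling. Comparisons were diet within plain IDs, within S IDs and over all libraries with ID form as a term, their interaction, and S against plain IDs within each diet. No column of the table was left unused, and none of the 47 pairs of libraries within a group agreed within sampling noise.

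Genes named with values were the 8 lowest called in the plain IDs, those at the ends of the level order, those with the smallest p or largest interaction in the other comparisons, members of the structural lists, and up to 3 per pathway list. Members and lists were chosen with earlier results of these data known. Alternatives were RLE scaling, library totals, no filter, DESeq2 1.42.0, leaving out each library, a replicate block, a fit of all libraries, and erythroid or cell cycle covariates. The level per principal transcript length was chosen after seeing the data. Promoter windows came from RefSeq and exon overlaps from GENCODE M21.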

Additional observations from a re-analysis of the deposited data

Results flagged for a closer look

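In 4 of 105 groups of values a single library stood apart by Dixon's criterion, and chance gives about 1 in 20. Mrpl41 was high in control 7 at 59.8 CPM (next value 46.1 CPM), Mrpl35 was low in control 8 at 26.7 CPM (next 35.6 CPM), and in gluten-free 7 Mrpl28 was low at 42.0 CPM (next 49.1 CPM) and Mrpl23 at 32.4 CPM (next 36.1 CPM).

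The effect of diet differed between the ID forms for 47 genes, by the interaction test of edgeR with adjusted p-values. Of 34 named genes 24 were among them, each with an S-ID fold change above its plain-ID fold change. Some of the 34 were named for a large interaction or a large plain-ID fall, so the count of 24 is partly set by that choice. The share over all tested mitoribosomal genes was 47 of 77. Differences at or above 0.90 on the log2 scale were those of Mrps28 (1.19), Mrpl20 (1.05), Mrps36 (1.00), Mrpl18 (1.00), Mrpl14 (0.98), Mrpl28 (0.97), Mrpl47 (0.96), Mrps22 (0.94), Mrpl22 (0.94) and Mrpl51 (0.90). Between 0.60 and 0.90 lay Mrpl12 (0.87), Mrpl41 (0.84), Mrpl46 (0.76), Mrpl49 (0.74), Mrpl11 (0.68), Mrpl52 (0.65) and Mrpl35 (0.64). The smallest were those of Mrpl23 (0.59), Mrpl40 (0.58), Mrpl38 (0.56), Mrpl17 (0.54), Mrpl45 (0.51), Mrpl58 (0.49) and Mrps30 (0.44). Adjusted p-values ran from 0.0019 for Mrpl20 to 0.039 for Mrps30.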

How the results depend on the processing

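RLE scaling and no filter left every count of called genes within 1.5 times. Library totals gave 18 called genes for diet in the plain IDs, 17 for the interaction, 12 for S against plain in gluten-free libraries and 1 in controls, and moved the mean summed level to 2630 CPM in gluten-free libraries with plain IDs and to 2522 CPM in controls with S IDs. With the erythroid or the cell cycle mean as a term the plain-ID count was 0. DESeq2 called 4 genes over all libraries and 4 for S against plain in controls, where a fit of all libraries called 3. Leaving out each library in turn gave 39 to 57 called genes in the plain IDs, 0 in the S IDs, 0 to 10 over all libraries, 37 to 52 for the interaction, 0 to 5 for S against plain in controls and 41 to 59 in gluten-free libraries. The counts with a marker term, with DESeq2 or without a library are given without the calls over all genes in the same fits. They show only how the counts of mitoribosomal genes move.

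The IDs 7, 8, S1 and S6 occur under both diets. Same-numbered libraries did not all deviate together (correlations -0.17, -0.20, 0.09 and 0.38), so they were not treated as pairs. Such few correlations cannot decide whether these libraries share more than a number, and the labels do not say. With the replicate block, fitted on these libraries alone, 0 genes were called in the plain IDs (6 at an unadjusted p under 0.05) and 0 for the interaction, from fewer samples, and Mrpl24 was at 0.0082.

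In the plain IDs, 27 of 77 fold changes were above 0 with library totals, 42 with the erythroid term and 44 with the cell cycle term. Library totals moved the median of all genes to 0.31, against 0.03 with TMM. Among the 34 named genes those above 0 with library totals were Mrps21 (0.0047), Mrps10 (0.21), Mrps35 (0.20), Mrpl19 (0.030), Mrpl58 (0.14), Mrpl10 (0.20), Mrpl23 (0.00085), Mrpl24 (0.27) and Mrps18a (0.061). With the erythroid term the named genes above 0 were Mrps36 (0.10), Mrpl14 (0.036), Mrpl28 (0.038), Mrpl51 (0.018), Mrps21 (0.47), Mrpl34 (0.37), Mrps35 (0.23), Mrpl41 (0.00024), Mrpl58 (0.19), Mrpl12 (0.25), Mrpl27 (0.34), Mrpl40 (0.18), Mrpl46 (0.16), Mrpl48 (0.25), Mrpl10 (0.036), Mrpl17 (0.089), Mrpl22 (0.14), Mrpl23 (0.19) and Mrps18a (0.21). With the cell cycle term they were Mrps36 (0.13), Mrpl14 (0.091), Mrpl28 (0.079), Mrpl51 (0.10), Mrps21 (0.55), Mrpl34 (0.47), Mrps35 (0.31), Mrpl41 (0.012), Mrpl58 (0.19), Mrpl12 (0.31), Mrpl35 (0.069), Mrpl27 (0.47), Mrpl38 (0.065), Mrpl40 (0.21), Mrpl46 (0.20), Mrpl48 (0.33), Mrpl10 (0.091), Mrpl17 (0.15), Mrpl22 (0.21), Mrpl23 (0.23) and Mrps18a (0.22). Mrpl24 was also above 0 with no filter (0.0058), with DESeq2 (0.0021) and without control 1 (0.014), 2 (0.014), 5 (0.0013) or 8 (0.046) or gluten-free 8 (0.020), 9 (0.054) or 10 (0.028). With 1 library left out, Mrpl24 ranged over -0.036 to 0.054, Mrps35 over -0.14 to 0.0028 and Mrps10 over -0.10 to 0.0014. The cause of the turns with the erythroid and cell cycle terms was not tested.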
